A study of Mus musculus with 9 samples.

Results

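The Hox genes of the mouse were examined as a family, with each member placed by its cluster and by its position in that cluster. The members were every protein-coding gene of the deposited count table whose symbol is Hoxa, Hoxb, Hoxc or Hoxd followed by a number from 1 to 13. This gave 39 genes of the 50686 in the table, of which 11 belong to the Hoxa cluster, 10 to Hoxb, 9 to Hoxc and 9 to Hoxd. By paralog number, 8 are anterior (1 to 3), 15 central (4 to 8) and 16 posterior (9 to 13). The study asked whether the GSK3 inhibitor SB216763 moves osteoblasts toward an endothelial profile, and it measured bulk RNA from 3 groups of 3 libraries. The control group was the untreated MC3T3-E1 line, preosteoblasts established from mouse calvaria. The second group was the same line given SB216763 at 10 µM for 14 days. The third group was mouse pulmonary endothelial cells (ECs), isolated by cell sorting. The labels name neither a strain or age for the ECs nor the time the controls spent in culture, and 1 clonal line stands for osteoblasts throughout.

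Hox genes encode homeodomain transcription factors that give cells an address along the body axis. In each cluster all genes are read in the same direction, and their order on the chromosome follows the order in which they are used: members near the 3' end (number 1) are active early and toward the head, and members near the 5' end (number 13) late and toward the tail or the tips of the limbs. The code is kept in adult cells, so that fibroblasts, osteoblasts and endothelial cells of different regions carry different Hox sets. Retinoic acid opens the 3' end of the clusters, Wnt and Cdx signals act on the central part, and Polycomb and Trithorax complexes hold the off and on states. GSK3 is the kinase that marks beta-catenin for destruction, so that its inhibitors are used to activate Wnt signaling.

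The libraries held 30990107 to 68946333 counted reads. No pair of replicates was as close as sampling noise, with a mean chi-square per gene of 29.1 to 115 between controls, 3.35 to 29.1 between treated libraries and 3.01 to 4.88 between EC libraries. All 8 endothelial markers (Cdh5, Pecam1, Kdr, Tek, Tie1, Emcn, Egfl7 and Esam) were above 1 CPM (counts per 1000000 reads, with libraries scaled by TMM, the trimmed mean of M values) in ECs, where they summed to 6750 to 6900 CPM. The same list summed to 2.83 to 3.53 CPM in controls and to 2.71 to 3.32 CPM in treated cells, with none of the 8 above 1 CPM. The 8 osteoblast markers summed to 43900 to 59300 CPM in controls, 8060 to 8340 CPM in treated cells and 45.3 to 64.6 CPM in ECs. In controls and treated cells nearly all of this was Col1a1 and Col1a2. With edgeR at an adjusted p under 0.01, 7 of the 8 were lower in treated cells than in controls, against 32.0% of all genes tested. Past 4-fold were 5 of these, against 5.84% of all genes, and 1 marker was not called. Of other lung cells in the EC libraries, the 6 epithelial markers summed to 1.43 to 2.29 CPM, with Epcam, Sftpc and Scgb1a1 at 0, the 6 leukocyte markers to 56.3 to 58.4 CPM, most of it Cd68 and with Cd3e at 0, the 4 mesothelial markers to 117 to 123 CPM, nearly all of it Msln, and the 8 stromal markers to 41.1 to 42.6 CPM. Their part in the Hox results was not tested. In bulk RNA, fewer cells of a kind and less RNA per cell cannot be told apart.

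The 3 groups carried different Hox sets. Summed over all members, Hox transcripts made up 82.9 ± 1.20 CPM in controls, 66.7 ± 3.22 CPM in treated cells and 428 ± 11.6 CPM in ECs (mean ± SD, n = 3). In controls the Hoxb cluster gave 60.2% ± 0.944 of that sum and the Hoxa cluster 37.8% ± 0.742. In SB216763-treated cells the order was turned, with 82.5% ± 1.05 from Hoxa and 16.5% ± 1.08 from Hoxb. In ECs the Hoxd cluster led with 59.6% ± 1.22, followed by Hoxb with 34.6% ± 1.05 and Hoxa with 5.75% ± 0.186. Hoxc gave 1.90% ± 0.651 in controls and under 1% in both other groups. These sums are descriptions without a test, and since they are not divided by gene length, long transcripts weigh more in them.

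**Figure D1:**
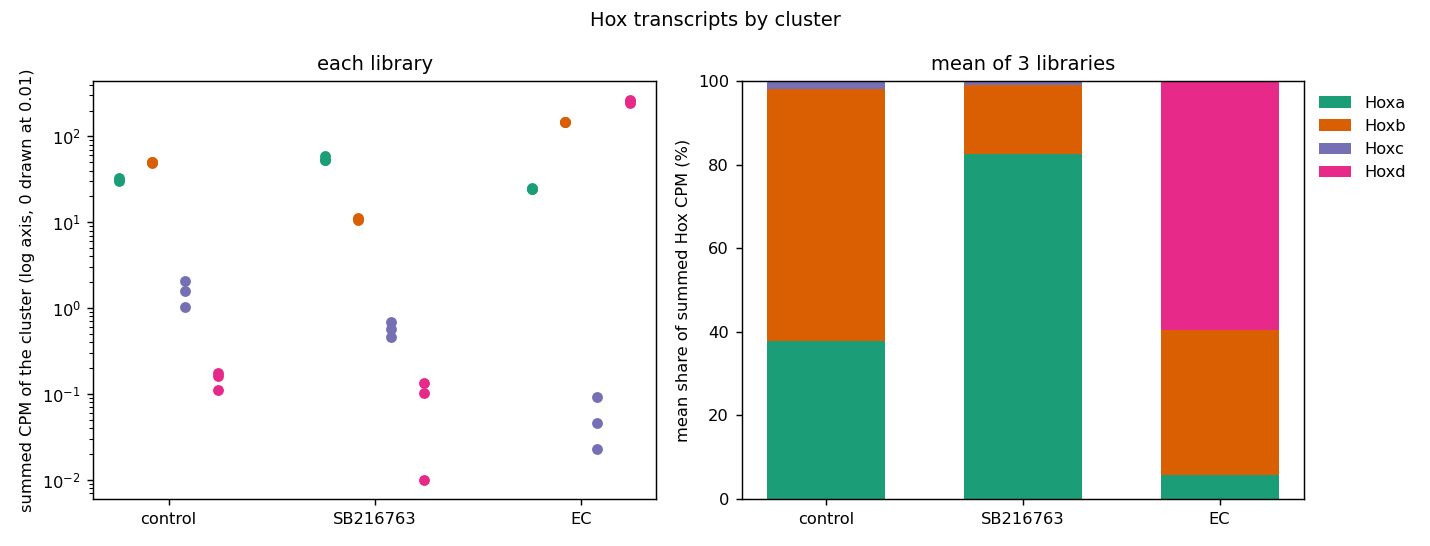
Hox transcripts by cluster. The left panel shows the summed CPM of each cluster in each library on a log axis (1 point per library, 0 drawn at 0.01), and the right panel the mean share of the summed Hox CPM over the 3 libraries of a group; Hoxa holds 37.8% of the sum in control and 82.5% in SB216763 libraries, and Hoxd holds 59.6% in ECs.

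The Hoxa and Hoxb sums varied little between libraries of a group, those of Hoxc more. The Hoxa sum was 30.5, 32.5 and 30.9 CPM in the controls, 58.8, 53.7 and 52.6 CPM in treated cells and 25, 24.3 and 24.5 CPM in ECs. The Hoxb sum was 49.1, 49.9 and 50.6 CPM in the controls, 10.9, 10.7 and 11.3 CPM in treated cells and 148, 147 and 148 CPM in ECs. For these clusters no library of any group reached into the range of another group. The Hoxd sum was 258, 265 and 242 CPM in ECs, while it was between 0.110 and 0.174 CPM in the controls and between 0 and 0.136 CPM in treated cells, which overlapped. The Hoxc sum was 1.04 to 2.09 CPM in controls, 0.463 to 0.688 CPM in treated cells and 0.0232 to 0.0913 CPM in ECs, without overlap.

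Levels of different genes were ordered per length, as CPM per kilobase of annotated exon. In controls Hoxb9, a posterior gene active in the trunk and in limb-level segments, led with 13.7 ± 0.264 CPM per kb, followed by Hoxa10, which patterns the lumbar spine and the proximal limb, with 5.46 ± 0.260. Hoxb8 (3.02 ± 0.0878), Hoxa5 (2.87 ± 0.233) and Hoxa6 (2.36 ± 0.172) came next, and the ranges of Hoxb8 and Hoxa5 overlapped. In treated cells Hoxa10 led with 11.7 ± 1.15 CPM per kb, followed by Hoxa5 with 3.01 ± 0.0668, and behind Hoxa6 and Hoxb8 came Hoxb9 with 1.30 ± 0.156. In ECs Hoxd8 led with 68.5 ± 3.90 CPM per kb. Hoxb8 (22.2 ± 0.104), Hoxb7 (21.7 ± 0.445) and Hoxd9 (21.6 ± 0.383) shared the next places with ranges that touched, and Hoxb6 (11.2 ± 0.427) and Hoxd10 (9.11 ± 0.247) followed. The exon lengths are unions over all annotated transcripts, so a gene with long unused exons is set too low on this scale.

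**Figure D2:**
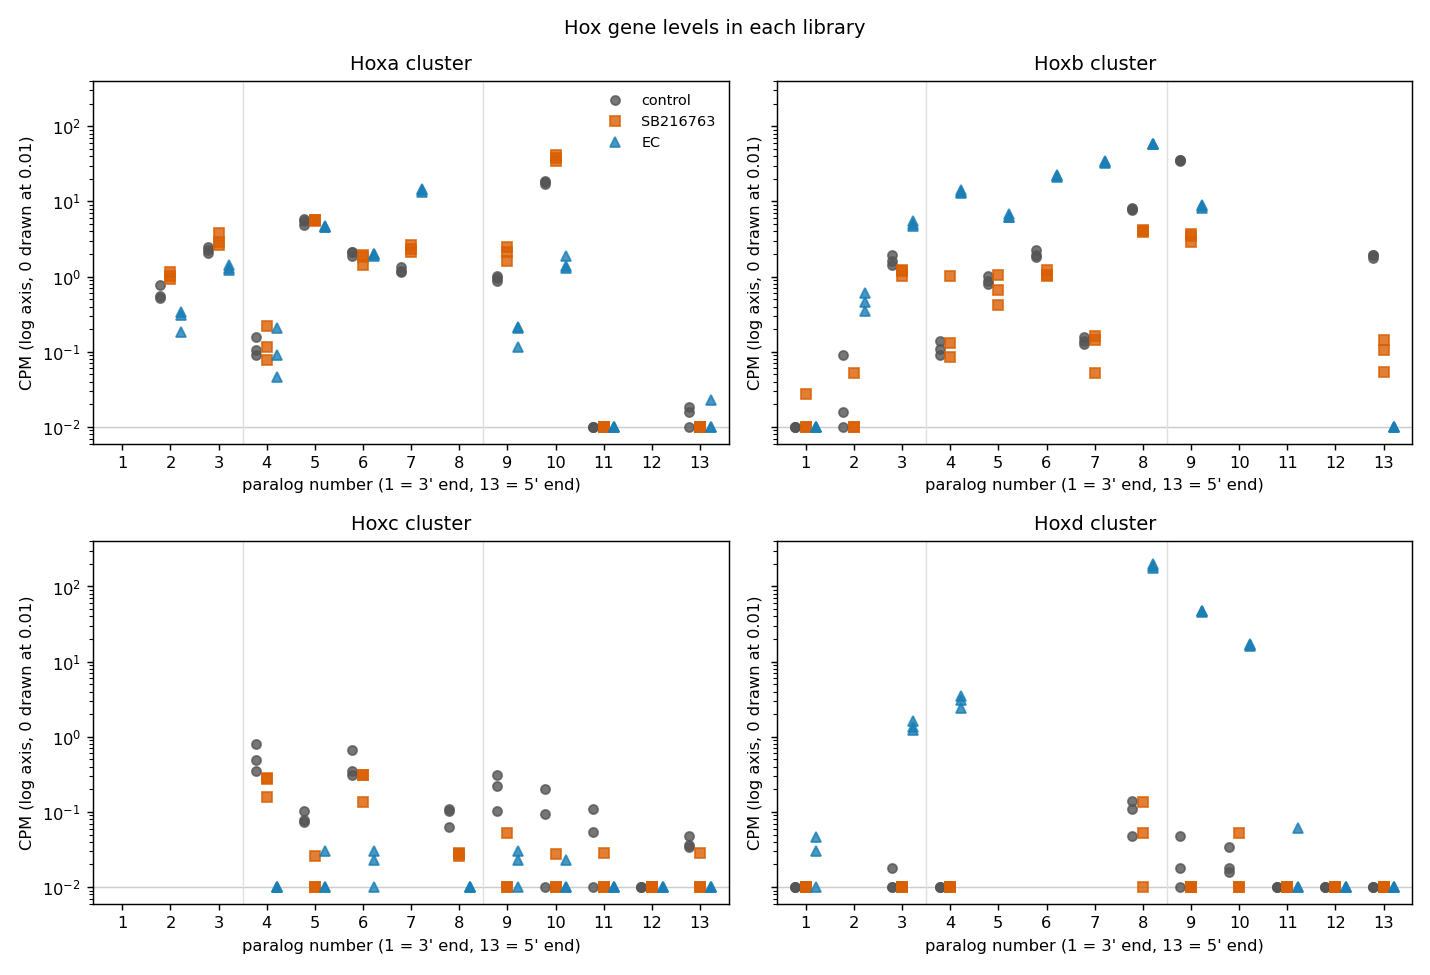
Level of the Hox genes in each library. The 4 panels are the clusters, the x axis is the paralog number from the 3' to the 5' end, the y axis is CPM on a log scale with 0 drawn at 0.01, and each point is 1 library; Hoxd8 to Hoxd10 are high in ECs and at or near 0 in both MC3T3-E1 groups, Hoxb9 is highest in the controls and Hoxa10 in the treated cells.

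A mean of at least 1 CPM was reached by 10 members in controls, 11 in treated cells and 17 in ECs. Other members were silent or nearly so in all groups. Hoxa11, Hoxc12, Hoxd12 and Hoxd13 had no read in any of the 9 libraries, which at a floor of 3 counts allows up to 0.0472 to 0.104 CPM in a library. Hoxa13, Hoxb1, Hoxd1 and Hoxd11 had at most 2 reads in any library. Above these, Hoxa4 was low in all groups, at 0.0910 to 0.157 CPM in controls, 0.0782 to 0.218 in treated cells and 0.0458 to 0.208 in ECs. The most 5' Hoxa gene with reads in each library was therefore Hoxa10, the direct neighbor of the silent Hoxa11. These floors cover counting error only. Of the 39 members, 24 passed the filter on low counts and were tested. Only 11 of these reached the filter's level in every library of all 3 groups. Another 8 (Hoxb2, Hoxb4, Hoxb7, Hoxd3, Hoxd4, Hoxd8, Hoxd9 and Hoxd10) reached it throughout a group only in ECs, and 3 (Hoxb13, Hoxc4 and Hoxc6) only in controls. Hoxa2 and Hoxa9 reached it in every control and treated library but not in every EC library. Members that entered the test through 1 high group were bound to differ from it, and these 2 entered through groups where they were above ECs. Counts over the tested members are therefore given as descriptions. So are the printed adjusted p-values of such members against that group, and those of Hoxa2 and Hoxa9 against ECs.

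The comparison of SB216763-treated cells with controls asked how the inhibitor changed the Hox set of the osteoblast line. The Hoxa genes that changed rose, and the Hoxb genes that changed fell. With edgeR at an adjusted p under 0.01, 4 of the 24 tested members were higher (Hoxa3, Hoxa7, Hoxa9 and Hoxa10), against 32.9% of all 15531 genes tested. Another 6 were lower (Hoxb3, Hoxb6, Hoxb8, Hoxb9, Hoxb13 and Hoxc4), against 32.0% of all genes. These are 16.7% and 25% of the members tested. With a 4-fold change in addition, 0 members were higher, against 3.81% of all genes, and Hoxb9 and Hoxb13 were lower, against 5.84%. The count of 0 was the same with limma-voom and DESeq2, and at an unadjusted p under 0.05 it was also 0. The median log2 fold change was -0.38 over the tested members and 0.01 over all genes. By cluster, 4 of the 8 Hoxa members tested were higher and none was lower, while 5 of the 9 Hoxb members tested were lower and none was higher.

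**Figure D3:**
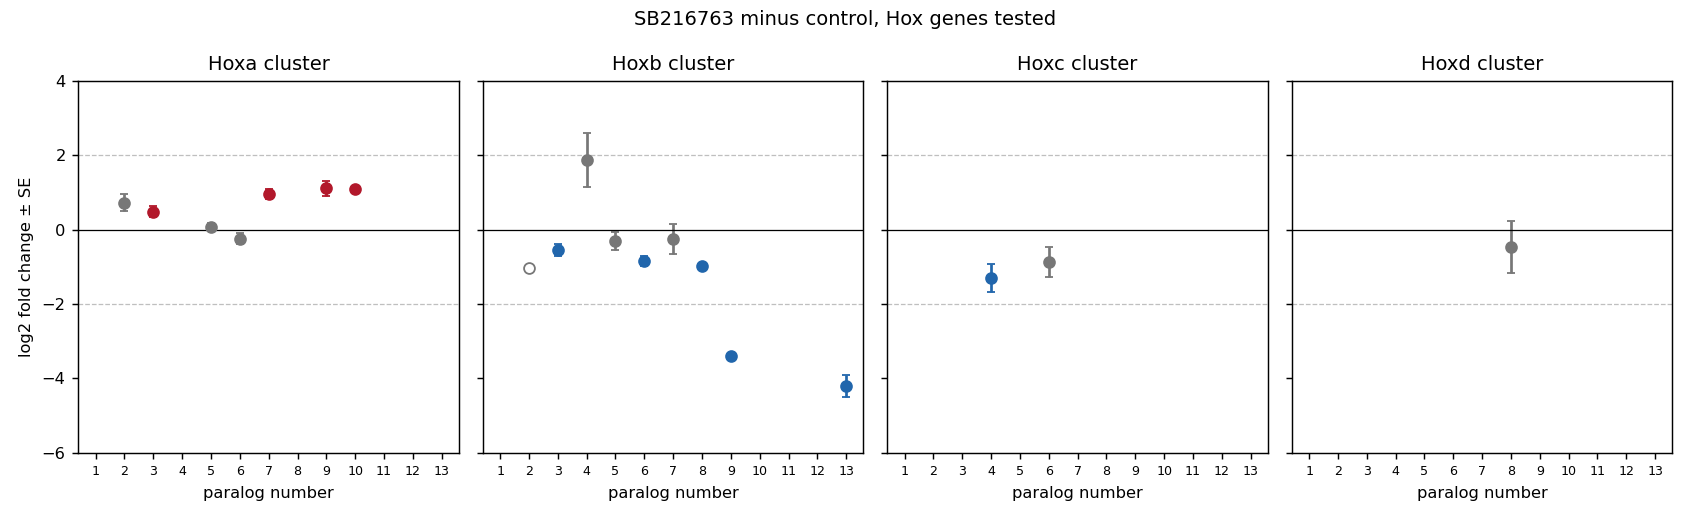
Log2 fold change of SB216763-treated cells over controls for the tested Hox genes, by cluster and paralog number. Points are edgeR estimates with their SE, red for higher and blue for lower at an adjusted p under 0.01, gray for neither, open (without SE) where a group held 3 reads or fewer in all, and dashed lines mark 4-fold; members with no library over 3 reads in either group are left out. The red points are all in Hoxa, and Hoxb9 and Hoxb13 lie below the lower dashed line.

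Hoxa10 was the member with the most reads in treated cells. This gene (ENSMUSG00000000938.11, GRCm38 chr6:52231197-52240854, minus strand) stood at 18.0, 18.6 and 16.9 CPM in the controls and at 42.1, 38.3 and 34.6 CPM in treated cells. The groups did not overlap, and the level was 2.14-fold higher after SB216763 (log2 fold change 1.10 ± 0.08 SE, edgeR adjusted p = 2.16e-09). Its 3' neighbor Hoxa9, a regulator of trunk and limb patterning and of blood progenitors, rose with it from 0.945, 1.02 and 0.868 CPM to 2.15, 1.62 and 2.45 CPM. That was a change of 2.17-fold (log2 1.11 ± 0.20, edgeR adjusted p = 9.01e-05). The reads of Hoxa9 per read of Hoxa10 were 0.0528 ± 0.00178 in controls and 0.0547 ± 0.0147 in treated libraries (mean ± SD, n = 3), with overlapping ranges. Hoxa7, a central gene of the thoracic region, was at 1.15, 1.33 and 1.18 CPM in the controls and at 2.66, 2.32 and 2.15 CPM in treated cells. It rose 1.94-fold (log2 0.96 ± 0.13, edgeR adjusted p = 6.64e-06), again with no overlap.

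The remaining Hoxa genes moved less. Hoxa3, which acts in the pharyngeal arches, was at 2.05, 2.27 and 2.5 CPM in controls and at 2.89, 2.66 and 3.86 CPM in treated cells, 1.40-fold higher (edgeR adjusted p = 0.00941). This call rested on single libraries: the edgeR adjusted p was 0.0488 without control replicate 1, 0.0173 without control replicate 2, 0.0122 without treated replicate 1, 0.0706 without treated replicate 3, and 0.0120, 0.0132 and 0.0134 without EC replicate 1, 2 or 3. Of the Hoxa3 exon bases, 27.1% are shared with other annotated genes, mostly on the opposite strand. Hoxa2, the selector gene of the second pharyngeal arch, was at 0.520, 0.764 and 0.555 CPM in controls and at 0.917, 1.02 and 1.14 CPM in treated cells. The groups did not overlap, yet the edgeR adjusted p was 0.0108, and it was 0.00538 without control replicate 2. Hoxa5, a lung and cervical gene, was at 4.93, 5.44 and 5.80 CPM in controls and 5.50, 5.68 and 5.74 CPM in treated cells. Hoxa6 was at 1.89, 2.15 and 2.15 CPM and at 1.83, 1.43 and 1.93 CPM. Both overlapped between groups, with 95% intervals of the log2 fold change from -0.10 to 0.26 for Hoxa5 and from -0.56 to 0.07 for Hoxa6.

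Hoxb9 was the most abundant member that fell. The gene (ENSMUSG00000020875.9, GRCm38 chr11:96271457-96276595, plus strand) was at 34.4, 35.7 and 35.5 CPM in the controls and at 3.44, 3.70 and 2.91 CPM in treated cells. Every treated library lay below a value of 4 CPM and every control above 34, a decrease of 10.5-fold (log2 fold change -3.39 ± 0.08, edgeR adjusted p = 2.18e-15). Hoxb13, the most 5' member of the cluster, known from the tail bud and the prostate, was at 1.94, 1.95 and 1.77 CPM in controls and at 0.143, 0.104 and 0.0544 CPM in treated cells. These values rest on 281 reads in the controls and 11 in treated cells, a fall of 18.4-fold (log2 -4.20 ± 0.29). Hoxb13 (ENSMUSG00000049604.3, chr11:96194316-96197447) lies apart from the rest of the cluster on the 5' side of Hoxb9.

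The Hoxb genes nearer the 3' end had smaller fold changes. Hoxb8, a thoracic gene that also keeps myeloid progenitors dividing, went from 7.73, 7.93 and 8.19 CPM to 4.13, 4.01 and 3.95 CPM, 1.97-fold lower (log2 -0.98 ± 0.07, edgeR adjusted p = 1.67e-09). Hoxb6, a central gene of the trunk, went from 1.92, 1.82 and 2.29 CPM to 1.23, 1.04 and 1.01 CPM, 1.80-fold lower (log2 -0.85 ± 0.14, edgeR adjusted p = 4.45e-05). Neither gene overlapped between the groups. Hoxb3, a hindbrain gene, was at 1.94, 1.44 and 1.60 CPM and then at 1.03, 1.22 and 1.17 CPM, 1.46-fold lower (edgeR adjusted p = 0.00717). Its adjusted p was 0.0591 without control replicate 1, 0.0296, 0.0116 and 0.0167 without treated replicate 1, 2 or 3, and 0.0112 without EC replicate 3, each from edgeR. Of its exon bases, 52.9% are shared with the antisense gene Hoxb3os, whose reads cannot be told apart from it without strand. Hoxb5 was at 0.866, 0.801 and 1.01 CPM in controls and at 0.659, 0.417 and 1.06 CPM in treated cells, and overlapped. Hoxb7 stayed between 0.127 and 0.157 CPM in controls and between 0.0521 and 0.163 CPM in treated cells.

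Hoxb4, known for expanding blood stem cells, was decided by 1 library. It had 7, 5 and 4 reads in the controls and 3, 5 and 37 reads in treated replicates 1, 2 and 3. The log2 fold change was 1.88 ± 0.73 (edgeR adjusted p = 0.0300, and 3.39e-06 without a filter on low counts), and 0.01 without treated replicate 3. Without treated replicate 1 or 2 it was 2.33 or 2.32, past the threshold (edgeR adjusted p = 0.00366 and 0.00735). Other members also had their highest treated value in replicate 3, among them Hoxb5 (1.06 CPM), Hoxa3 (3.86 CPM), Hoxa9 (2.45 CPM), Hoxa2, Hoxa5 and Hoxa6. Among those with their lowest treated value there were Hoxa7, Hoxa10, Hoxb6, Hoxb8, Hoxb9 and Hoxb13.

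Because both genes were counted in the same libraries, the reads of Hoxa10 per read of Hoxb9 give the change without any scaling. The ratio was 0.523, 0.522 and 0.477 in the controls, 12.2, 10.4 and 11.9 in treated cells and 0.150, 0.205 and 0.171 in ECs. The treated libraries stood apart from both other groups. The log2 ratio differed by 4.5 between treated and control libraries, with a two-sided exact permutation p of 0.10, the smallest that 3 against 3 libraries allow. This pair was chosen after its values were seen.

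The Hoxc genes were at the lower end of detection in the osteoblast line. Hoxc4 was at 0.803, 0.491 and 0.347 CPM in controls and at 0.287, 0.156 and 0.272 CPM in treated cells, 2.44-fold lower (edgeR adjusted p = 0.00748). Without control replicate 1 the log2 fold change was -0.88 in place of -1.29 (edgeR adjusted p = 0.0679), and without treated replicate 1, 2 or 3 the adjusted p was 0.0136, 0.0421 or 0.0172. Hoxc6 was at 0.309 to 0.677 CPM and 0.136 to 0.315 CPM (edgeR adjusted p = 0.0647). The other 7 Hoxc genes did not pass the filter and were not tested with it. Among these, Hoxc9 had 34 reads in the controls and 2 in treated cells, a ratio per scaled read of 12.7 (95% exact binomial interval 3.26 to 109, counting error only). Hoxc10 had 17 reads and 1 read, Hoxc8 had 13 and 3, Hoxc5 had 12 and 1, Hoxc11 had 10 and 1, and Hoxc13 had 6 and 1. The controls together held more reads than the treated libraries, so these pairs overstate the fall. Per scaled read, the interval of the ratio included 1 for Hoxc8 (0.89 to 17.7) and Hoxc13 (0.544 to 206). Hoxc10 and Hoxc11 had no read in control replicate 3.

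The Hoxd genes were not detectably induced by SB216763. Hoxd8 had 3, 6 and 4 reads in the controls and 0, 2 and 5 in treated cells. Hoxd9 had 3, 1 and 0 reads in the controls and none in treated cells, Hoxd10 had 3 and 2 reads over the groups, Hoxd3 had 1 and none, and Hoxd4 had none in either. A count of 3 reads in a treated library corresponds to 0.0819 CPM on average. None of the 5 tested Hoxd members was called with edgeR, limma-voom or DESeq2, and 1 had an unadjusted p under 0.05 with edgeR (Hoxd9) against 0 with each other tool.

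The bases in front of the starts of Hoxa10, Hoxb8 and Hoxd8 are shown here. Windows of 250 bases from RefSeq (GRCm38.p6) were used for 22 of the 39 members, 24 windows in all. Those of Hoxb3, Hoxb6, Hoxb7, Hoxb9 and Hoxb13 were not analysed here. Capitals mark the letters CTTTGA, the core of TCF/LEF sites (the factors that beta-catenin acts through), or TTTATG, the core of CDX sites, each on either strand. The first was in 3 of the 24 Hox windows (12.5%) and in 13.8% of all 32851 windows of this length. The second was in 5 of 24 (20.8%) and in 10.8% of all windows. The 2 motifs do not overlap in the windows shown. In the GENCODE M21 annotation the window of the Hoxa10 3' start lies in an intron of the longer Hoxa10 transcripts, that of Hoxd8 in an intron of the antisense gene Hoxd3os1, and no exon reaches into any window shown. A match is a description of letters and no evidence of binding. Hoxa10 is shown for both of its starts since it led in treated cells, Hoxb8 since it fell with SB216763 and was high in ECs, and Hoxd8 since it led in ECs.
Hoxa10, 5' start (chr6:52240855-52241104, minus strand): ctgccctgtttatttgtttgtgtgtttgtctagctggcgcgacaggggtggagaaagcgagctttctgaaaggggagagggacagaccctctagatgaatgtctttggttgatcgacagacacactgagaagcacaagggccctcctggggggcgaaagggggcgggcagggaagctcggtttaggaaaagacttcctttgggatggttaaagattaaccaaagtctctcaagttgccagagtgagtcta
Hoxa10, 3' start (chr6:52234940-52235189, minus strand): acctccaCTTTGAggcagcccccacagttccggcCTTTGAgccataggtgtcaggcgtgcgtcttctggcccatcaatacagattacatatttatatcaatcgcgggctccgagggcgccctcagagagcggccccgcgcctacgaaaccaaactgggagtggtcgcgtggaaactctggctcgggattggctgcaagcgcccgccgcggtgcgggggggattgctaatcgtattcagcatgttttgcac
Hoxb8 (chr11:96281655-96281904, plus strand): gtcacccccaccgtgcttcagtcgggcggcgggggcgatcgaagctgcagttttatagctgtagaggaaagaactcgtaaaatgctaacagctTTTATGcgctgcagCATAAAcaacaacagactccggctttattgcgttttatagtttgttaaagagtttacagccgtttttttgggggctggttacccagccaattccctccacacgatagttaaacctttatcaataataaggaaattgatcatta
Hoxd8 (chr2:74704365-74704614, plus strand): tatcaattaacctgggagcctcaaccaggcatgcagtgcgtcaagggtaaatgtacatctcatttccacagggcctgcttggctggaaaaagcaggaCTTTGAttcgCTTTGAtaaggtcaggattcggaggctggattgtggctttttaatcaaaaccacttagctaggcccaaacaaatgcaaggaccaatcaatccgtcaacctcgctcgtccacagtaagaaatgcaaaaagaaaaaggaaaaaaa

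The window of the Hoxa10 3' start held CTTTGA at 2 places, as did that of Hoxd8, and the window of Hoxb8 held TTTATG at 2 places, once on each strand. Hoxa7, which rose after treatment and was high in ECs, held TTTATG at 2 places. The windows of Hoxa3, Hoxa9 and the Hoxa10 5' start, whose genes also rose, held neither set of letters. The median number of CG pairs was 12.5 in the Hox windows and 6 in all windows, and it was 20 for the Hoxa10 3' start, 12 for Hoxb8 and 6 for Hoxd8. The counts were taken over the whole gene and do not tell which start was used.

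The comparison of ECs with control osteoblasts asked how the Hox sets of the 2 cell types differ. ECs had far more Hoxd and Hoxb transcripts, and fewer from the posterior genes that the osteoblast line used. With edgeR at an adjusted p under 0.01, 13 of the 24 tested members were higher in ECs (background 39.0%), and 8 were lower (background 37.9%). With a 4-fold change in addition, 12 were higher (background 13.5%) and 6 lower (background 9.87%). Of these members, 8 of the higher and 3 of the lower entered the test through the group where they were high. Hoxa2 and Hoxa9, also lower, entered it through the 2 MC3T3-E1 groups. Nothing is therefore read from these shares. By cluster, all 5 Hoxd members tested and 7 of 9 Hoxb members were higher, both Hoxc members were lower, and in Hoxa 1 was higher and 4 were lower.

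**Figure D4:**
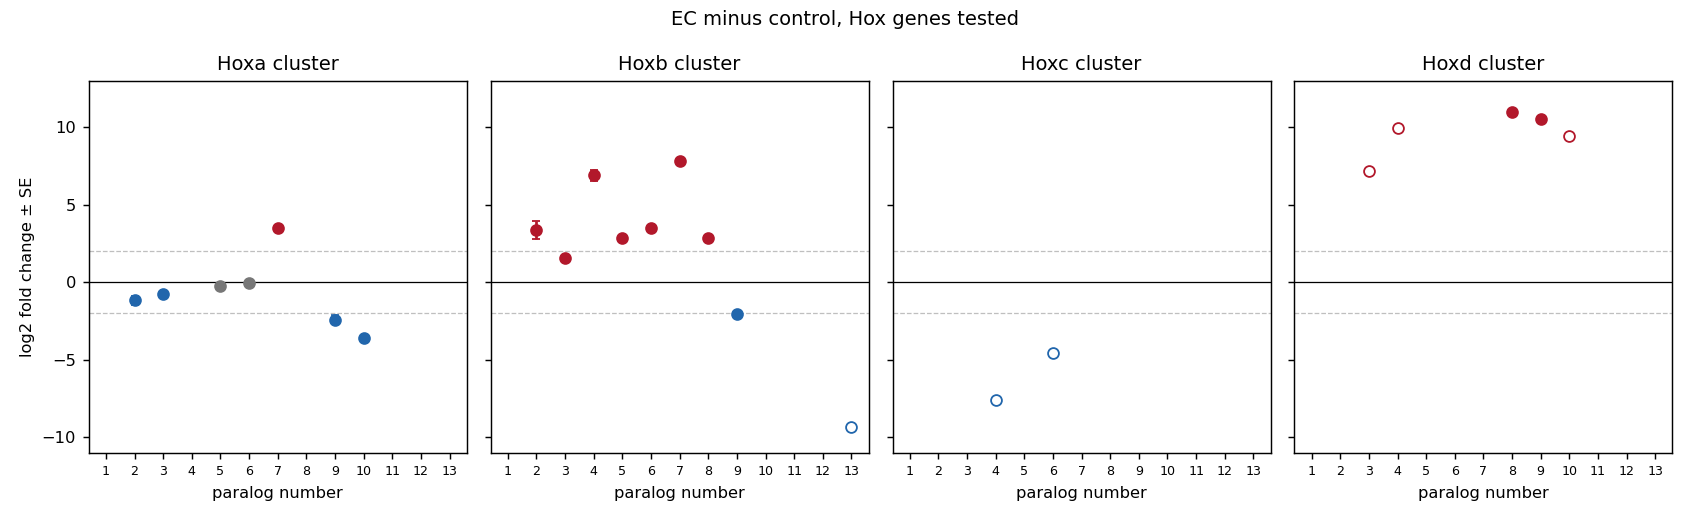
Log2 fold change of ECs over controls for the tested Hox genes, by cluster and paralog number. Points are edgeR estimates with their SE, red for higher and blue for lower in ECs at an adjusted p under 0.01, gray for neither, open (without SE) where a group held 3 reads or fewer in all, whose fitted value depends on the prior count, and dashed lines mark 4-fold. In Hoxb, numbers 2 to 8 lie above 0 and 9 and 13 below, and all Hoxd points lie above.

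Hoxd8 had the highest level of any Hox gene in any group. The gene (ENSMUSG00000027102.4, GRCm38 chr2:74704615-74707933, plus strand) was at 190, 198 and 177 CPM in ECs and at 0.0472, 0.109 and 0.139 CPM in controls. It rests on 13 reads in the controls against 22408 in ECs, a ratio of 2120 per scaled read (95% exact binomial interval 1240 to 3980). The fitted log2 fold change was 11.01 ± 0.15. Hoxd9, its 5' neighbor, was at 46.5, 46.7 and 45.2 CPM in ECs, with 4 reads in the 3 controls together. The ratio was 1700 (interval 662 to 6230), and the log2 fold change went from 10.58 to 11.57 without control replicate 1. Hoxd10, which patterns the lumbar segments and the limb, was at 17.1, 16.4 and 16.2 CPM in ECs against 1 read in each control, a ratio of 813 (interval 278 to 3950). The series from Hoxd8 over Hoxd9 to Hoxd10 then broke off: Hoxd11 had 2 reads in 1 EC library, and Hoxd12 and Hoxd13 had none.

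On the 3' side of Hoxd8, the levels in ECs were lower. Hoxd4 was at 3.5, 3.07 and 2.43 CPM in ECs and had no read in any of the other 6 libraries, at least 43.7-fold higher than the controls at a floor of 3 reads per library. Hoxd3 was at 1.60, 1.22 and 1.37 CPM in ECs against 1 control read, a ratio of 208 (interval 36.8 to 8260), and the fitted log2 fold change of 7.17 became 8.82 without control replicate 2. These genes share 52.3% (Hoxd4) and 62.8% (Hoxd3) of their exon bases with each other and with other annotated genes, so their separate levels are uncertain. Hoxd1 had 2 reads or fewer in each EC library.

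In the Hoxb cluster the EC profile had its peak at numbers 7 and 8. Hoxb8 was at 58.2, 58.7 and 58.7 CPM in ECs, 7.39-fold above the controls (log2 2.89 ± 0.05, edgeR adjusted p = 2.27e-17). Hoxb7, a central gene of the trunk, was at 34.2, 32.9 and 33.3 CPM in ECs and at 0.127 to 0.157 CPM in controls (log2 7.85 ± 0.12). Hoxb7 was near silent in MC3T3-E1 cells although its neighbors Hoxb8 and Hoxb6 were not. Hoxb6 was at 22.0, 21.1 and 22.7 CPM in ECs, 11.2-fold above controls (edgeR adjusted p = 1.76e-15). Hoxb4 was at 12.9, 14.1 and 13.4 CPM (log2 6.91 ± 0.36), and Hoxb5 at 6.13, 6.12 and 6.71 CPM, 7.23-fold above controls (edgeR adjusted p = 3.05e-10). Hoxb3 was at 5.47, 4.78 and 4.95 CPM, 3.03-fold above controls (edgeR adjusted p = 9.06e-09). Hoxb2, a hindbrain gene, was low in ECs too, at 0.458, 0.609 and 0.347 CPM, against 6 control reads, and its log2 fold change of 3.41 became 5.06 without control replicate 2.

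The posterior end of Hoxb went the other way. Hoxb9 was at 8.72, 9.04 and 8.10 CPM in ECs, 4.09-fold below the controls (log2 -2.03 ± 0.07, edgeR adjusted p = 7.87e-14). Hoxb13 had no read in any EC library, at least 24.6-fold below the controls at the floor of 3 reads per library. Reads of Hoxb8 per read of Hoxb9 were 0.226 ± 0.00445 in controls, 1.21 ± 0.136 in treated cells and 6.81 ± 0.392 in ECs (mean ± SD, n = 3), with no overlap between groups.

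In the Hoxa cluster Hoxa7 was the 1 member called higher in ECs, at 14.3, 13.3 and 14.5 CPM, 11.5-fold above controls (log2 3.52 ± 0.10, edgeR adjusted p = 1.16e-14). Hoxa10 was at 1.30, 1.86 and 1.39 CPM in ECs, 12-fold below the controls (log2 -3.58 ± 0.11, edgeR adjusted p = 5.46e-14). Hoxa9 was at 0.206, 0.213 and 0.116 CPM, 5.35-fold below (edgeR adjusted p = 1.69e-06). Hoxa3 (1.44, 1.22 and 1.32 CPM) was 1.68-fold below the controls with an edgeR adjusted p of 0.000786. Hoxa2 (0.343, 0.304 and 0.185 CPM) was 2.23-fold below them with an edgeR adjusted p of 0.00191, which was 0.0153 without control replicate 2 and 0.0157 without EC replicate 3. Hoxa5 (4.56, 4.75 and 4.51 CPM) and Hoxa6 (1.99, 1.98 and 1.88 CPM) were near the control values, with 95% intervals of the log2 fold change from -0.40 to -0.03 and from -0.38 to 0.23. Both Hoxc genes tested were lower: Hoxc4 had no EC read, at least 7.15-fold below the controls, and Hoxc6 had 2, a ratio of 28.5 (interval 7.59 to 240).

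The comparison of treated osteoblasts with ECs asked how far apart the Hox sets were after treatment. With edgeR at an adjusted p under 0.01, 8 of the 24 tested members (Hoxa2, Hoxa3, Hoxa5, Hoxa9, Hoxa10, Hoxb13, Hoxc4 and Hoxc6) were higher in treated cells (background 38.3%) and 14 were lower (background 40.3%). With a 4-fold change in addition, 5 were higher (background 10.3%) and 13 lower (background 15.0%). Of the lower members, 8 entered the test only through ECs. Of the higher ones, Hoxb13, Hoxc4 and Hoxc6 entered it only through controls, and Hoxa2 and Hoxa9 through the 2 MC3T3-E1 groups. Nothing is therefore read from these shares. The treated and the control libraries are compared with the same ECs, so these calls repeat part of the comparison above. Hoxa10 was 25.6-fold higher in treated cells than in ECs (log2 4.68 ± 0.11, edgeR adjusted p = 8.23e-16), and for controls against ECs the difference was 12-fold. Hoxb8 was 14.5-fold lower in treated cells than in ECs (edgeR adjusted p = 3.13e-18), where the controls were 7.39-fold lower. Hoxb6 was 20.1-fold lower (edgeR adjusted p = 7.12e-16), where the controls were 11.2-fold lower. Hoxa7 was 5.92-fold lower (edgeR adjusted p = 2.83e-13), where the controls were 11.5-fold lower. Hoxb9, which was higher in controls than in ECs, was 2.56-fold lower in treated cells than in ECs (log2 -1.36 ± 0.09, edgeR adjusted p = 5.25e-10).

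For Hoxa10, Hoxa9, Hoxa3, Hoxb8, Hoxb6 and Hoxb3, the control level thus lay between the treated and the EC level. For Hoxa7, Hoxb13 and Hoxc4 the treated level lay between control and EC, and for Hoxb9 the EC level lay between treated and control. Mean levels in controls, treated cells and ECs were 1.88, 0.101 and 0 CPM for Hoxb13 and 0.547, 0.238 and 0 CPM for Hoxc4. Hoxa5 differed least among the called members, 1.23-fold higher in treated cells (edgeR adjusted p = 0.00622). That adjusted p was 0.0143 and 0.0131 without treated replicate 2 or 3, and 0.0248, 0.0108 and 0.0194 without EC replicate 1, 2 or 3. Hoxa6 was not called. Hoxa9 was 11.6-fold, Hoxa2 3.69-fold and Hoxa3 2.35-fold higher in treated cells than in ECs, while Hoxb7 was 276-fold, Hoxb5 8.89-fold and Hoxb3 4.43-fold lower. Hoxc4 and Hoxb13, with no EC read, were at least 3.12-fold and 1.32-fold higher at the floor of 3 reads per library. For the low Hoxb and Hoxd genes the value depends on a few reads: the log2 fold change went from -5.03 to -6.90 for Hoxb4 and from -11.46 to -12.59 for Hoxd8 without treated replicate 3. Without treated replicate 2 it went from -4.46 to -7.29 for Hoxb2 and from -9.61 to -12.45 for Hoxd10. Hoxd9, with no read in treated cells, was at least 563-fold lower than in ECs, Hoxd4 at least 36.6-fold and Hoxd3 at least 17-fold.

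Hox proteins bind DNA together with homeodomain proteins of the Pbx, Meis and Pknox families. All 11 cofactor genes on the list used here were tested. Between treated cells and controls, 5 were higher, Pbx2, Meis1, Meis3 and Pknox2 among them, 3 were lower (Pbx3, Meis2 and Tgif2) and 3 were not called, with a median log2 fold change of 0.49 and none past 4-fold. Of all genes tested, 32.9% were higher and 32.0% lower. Meis3 went from 33.6 ± 1.45 to 64.0 ± 0.951 CPM (mean ± SD, n = 3, edgeR adjusted p = 2.15e-11). Pbx2 went from 42.2 ± 0.698 to 76.4 ± 1.04 CPM (edgeR adjusted p = 2.34e-10). In ECs 3 cofactors were higher than in controls (background 39.0%) and 6 lower (background 37.9%), 3 of these past 4-fold (background 9.87%). Meis1, Meis3 and Pknox2, the 3 past 4-fold, entered the test only through the osteoblast line, so nothing is read from these shares. Meis1, which pairs with posterior Hox proteins, had no read in any EC library and was at 7.05 ± 0.325 CPM in controls, at least 92.2-fold lower at the floor of 3 reads per library. In the same libraries Meis3 had a level of 0.242 ± 0.0102 CPM and Pknox2 of 0.0535 ± 0.0348 CPM.

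Of 29 genes on the list of upstream and chromatin regulators, 25 were tested. Between treated cells and controls, 11 were higher (background 32.9%), 8 lower (background 32.0%) and 6 not called, with a median log2 fold change of 0.04. Past 4-fold there were 2, both of the retinoic acid pathway. Cyp26b1, an enzyme that degrades retinoic acid, fell from 74.4 ± 9.30 CPM to 3.60 ± 0.475 CPM (mean ± SD, n = 3, log2 -4.37 ± 0.11, edgeR adjusted p = 4.15e-15). Rarb, a retinoic acid receptor that is itself a target of the pathway, rose from 0.219 ± 0.0698 to 1.41 ± 0.218 CPM (log2 2.75 ± 0.27, edgeR adjusted p = 1.38e-07). Rarb had 9, 13 and 8 reads in the controls and reached the filter's level throughout a group only in treated cells. Its rise and adjusted p are therefore descriptions. In ECs Cyp26b1 was at 7.69 ± 0.453 CPM and Rarb at 0.273 ± 0.0547 CPM. Cdx2 and Cdx4 had no read in any library, and Cdx1 had at most 6. Against controls, 6 of the 25 were higher in ECs (background 39.0%) and 15 lower (background 37.9%), with a median of -0.33.

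Of 28 noncoding, microRNA and flanking genes listed beside the clusters, 25 were in the table and 11 were tested. In treated cells 3 were higher (Skap2, Snx10 and Smug1), 3 lower (Hoxd3os1, Mtx2 and Lnpk) and 5 not called, beside 32.9% higher and 32.0% lower of all genes tested, and none passed 4-fold. In ECs 5 were higher than in controls (background 39.0%) and 3 lower (background 37.9%). Among the higher ones, the antisense gene Hoxd3os1 averaged 4.02 ± 0.0596 CPM in EC libraries and 0.363 ± 0.136 CPM in controls, and Hoxb5os 1.66 ± 0.125 and 0.231 ± 0.112 CPM. The antisense gene Hoxb3os was not called, at 0.247 ± 0.106 CPM in ECs and 0.234 ± 0.150 CPM in controls (edgeR adjusted p = 0.906). Haglr, a noncoding RNA of the Hoxd cluster, had 52, 29 and 37 reads in the EC libraries and none in the other 6. Haglr, Hoxb5os and Hoxd3os1, all higher in ECs, reached the filter's level throughout a group only there. Nothing is therefore read from the share of higher genes. Hotair, the noncoding RNA of the Hoxc cluster, had 24, 15 and 7 reads in the controls, 4, 1 and 0 in treated cells and 0 in ECs, and was not tested. Inside the spans of the 4 clusters, 46 other annotated genes were counted, of which 21 had no read in any library and 8 had at least 10 reads in every EC library.

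Other homeobox and T-box genes that mark position in the head, trunk and limbs were listed as well. Of 42, 30 were tested. In treated cells 8 were higher (background 32.9%), 15 lower (background 32.0%) and 7 not called, with a median log2 fold change of -0.26. Past 4-fold were 4 that fell, Meox1, Lmx1b and Otx1 among them, and Dlx4, which rose. Meox1, a somite gene, had 76, 90 and 40 reads in the controls and none in treated cells, at least 17.2-fold lower at the floor of 3 reads per library. Lmx1b, the dorsal limb and calvarial factor, went from 2.5 ± 0.184 to 0.321 ± 0.100 CPM (mean ± SD, n = 3, edgeR adjusted p = 2.67e-08). Meox1 and Lmx1b reached the filter's level throughout a group only in controls. Their falls, and the adjusted p of Lmx1b, are therefore descriptions. Otx1, a head gene, went from 5.73 ± 0.535 to 1.11 ± 0.0982 CPM (edgeR adjusted p = 1.01e-10). Dlx4 went from 0.0508 ± 0.0145 to 0.290 ± 0.0431 CPM (edgeR adjusted p = 0.000103). That rests on 4, 3 and 1 reads in the controls and 9, 13 and 10 in treated cells. It reached the filter's level throughout a group only in treated cells, so this rise and its adjusted p are descriptions. In ECs 26 of the 30 were lower than in controls (background 37.9%), 25 of them past 4-fold (background 9.87%), and 3 were higher (Tbx2, Msx1 and Lhx8; background 39.0%). Genes that entered the test only through the osteoblast line, Meox1 among them, add to these counts of lower genes, so nothing is read from the shares. Among the lower ones was Prrx1, a gene of limb and skull mesenchyme, at 3.63 ± 0.627 CPM against 769 ± 56.7 CPM in controls.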

How the data were processed

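Total RNA of the 9 libraries was sequenced, and the deposited table holds raw read counts per gene that the authors made with STAR 2.5.3a on GRCm38, per the submitters' processing notes and the study's methods. The annotation release and the strand setting are not given in the sources used here. Symbols, exon lengths and coordinates were taken from GENCODE M21 (50376 of 50686 identifiers matched). Library totals were 30990107 to 68946333 counts.

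Genes were kept with filterByExpr over the 3 groups (15531 genes), scaled by TMM and tested with edgeR 4.0.16 (quasi-likelihood, all 9 libraries in 1 fit) in R 4.3.3, with Benjamini-Hochberg adjustment over all genes tested. Called means an adjusted p under 0.01; 4-fold means a log2 difference of 2 or more in size. CPM are TMM-scaled. On simulated data for treated against control with 200 of 15202 genes changed 8-fold, 200 were recovered and 0 others called at 4-fold. The changed genes were drawn from those above 1 CPM in both groups, and all genes were given the same spread between replicates. Recovery of members below 1 CPM, or with a wider spread, was therefore not tested. DESeq2 1.42.0 and limma-voom 3.58.1, other scalings and filters, a replicate block and leaving out each library were tried.

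The members, gene lists and motifs were chosen with earlier results of these data known. Some genes of the family and of the lists enter the counts but are not reported here. The other members are all accounted for, and those with a mean of at least 1 CPM in a group are described by library; of other lists, genes past 4-fold between treated cells and controls are named, at most 5 a list, and further genes were named after their values were seen. Nothing in the labels says that replicates were separate cultures or animals, so p-values measure the spread between these libraries, which may be technical.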

Additional observations from a re-analysis of the deposited data

How the results depend on the processing

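Calls of single members were compared over 17 alternatives per comparison. Of the 10 members called between treated cells and controls, 7 to 10 kept their call, those lost being Hoxa3, Hoxb3 and Hoxc4; of 21 called between ECs and controls, 20 or 21 kept it, and of 22 between treated cells and ECs, 19 to 22. No called member changed direction. Without a filter, Hoxb4 and Hoxc9 gained a call between treated cells and controls (edgeR adjusted p = 3.39e-06 for Hoxb4), and Hoxc8, Hoxc9 and Hoxc10 between ECs and controls; with 10 counts in every library of 1 group as the filter, Hoxa2 gained one between treated cells and controls. The count of members more than 4-fold higher in treated cells than in controls was 0, and 2 with a log2 fold change of at least 1 in place of 2; leaving out single libraries gave 0 to 1 (Hoxb4). With only the 2 groups compared in the fit, the members higher in treated cells than in ECs went from 8 to 5, and with 4-fold from 5 to 2, because Hoxb13, Hoxc4 and Hoxc6 no longer passed the filter. Scaling by library size only moved the median log2 fold change of all genes to 0.22 for treated cells and 0.13 for ECs against controls. Calls were still made against a log2 fold change of 0 and not against that median. Between treated cells and controls, Hoxb3 and Hoxc4 lost a call, and Hoxa2 and Hoxa5 gained one, Hoxa5 at a log2 fold change of 0.29. The Hoxa sum was then 29.0 CPM in controls and 58.7 CPM in treated cells, and the Hoxb sum 46.2, 11.7 and 150.0 CPM in controls, treated cells and ECs; with RLE scaling the Hoxb sum in ECs was 149 CPM.

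Signs that turned all belonged to differences that were not called: with single libraries left out, the log2 fold change between treated cells and controls ranged from -3.89 to 0.61 for Hoxb2 (turned without control replicate 2), from -0.56 to 0.10 for Hoxb7 (treated replicate 2) and from -1.60 to 0.07 for Hoxd8 (treated replicate 1). Hoxa6 was at 0.05 between ECs and controls with library size only. The cause was not tested.

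With the replicate number as a block, 4-fold counts were 0 higher and 2 lower between treated cells and controls, and Hoxa3 and Hoxb3 lost their call (edgeR adjusted p = 0.0120 and 0.0109). The numbers did not pair the libraries: correlations of same-numbered deviations were 0.00286, 0.123 and 0.0810 between controls and treated cells, and -0.0392 to 0.0337 in the pairings with ECs, and 2, 1 and 0 of 3 libraries correlated best with their own number. Depth limits the Hoxc genes and, in MC3T3-E1 cells, the Hoxd genes.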
